A study of Mus musculus with 18 samples.

Results

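The genes described here encode the coat of the lipid droplet and the switch that opens the droplet to lipolysis. They were the rows of the deposited count table whose symbol was Plin2, Plin4, Plin5, Cidea, Cideb, Cidec, G0s2, Pnpla2, Abhd5 or Hsd17b13, and all 10 were found among the 55487 genes of the table. The table came from bulk RNA-seq of livers from 18 male C57BL/6J mice, 6 in each of 3 groups, all aged 7 weeks at purchase and fasted for 4 h before the tissue was taken. CON-GFP mice ate a purified control diet, and FPC-GFP and FPC-LIPA mice ate the FPC diet, a high-fat diet rich in fructose, palmitate and cholesterol with sugar water to drink; both diets ran for 16 weeks. Every mouse had received an AAV8 vector 1 week before its diet began, in which the hepatocyte promoter TBG drove GFP or, in FPC-LIPA, human LIPA, the lysosomal acid lipase that cleaves cholesteryl esters and triglycerides inside lysosomes. Mice on the control diet with the LIPA vector were not analysed here. In bulk liver, fewer cells of a type and less RNA per cell cannot be told apart.

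Lipid droplets store neutral lipid under a single layer of phospholipid, and their protein coat decides how fast that lipid is released. Perilipins cover the droplet and shield it from lipases, while the CIDE proteins sit where droplets touch and pass lipid from the smaller to the larger, so that droplets grow. Adipose triglyceride lipase, encoded by Pnpla2, starts the breakdown of triglyceride, Abhd5 (CGI-58) activates it, G0s2 inhibits it, and hepatocytes with steatosis, the fatty change of the liver, carry more of several of these coat proteins.

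Libraries held between 16632146 and 37739301 counts, and the members drew between 70 counts (Cidea in CON-GFP 1) and 100724 counts (Plin2 in FPC-GFP 11) in a library, so that counting error was small beside the differences between mice. Levels are given in CPM, a gene's counts as a share of its library, brought to the same library size in all 18. The genes of cytosolic ribosomal proteins took 1.52% to 2.24% of counts in CON-GFP, 1.25% to 1.57% in FPC-GFP and 1.90% to 2.60% in FPC-LIPA 31, 33 and 34, but 5.93% in FPC-LIPA 36 and 7.54% in both FPC-LIPA 37 and FPC-LIPA 39. These 3 libraries stood apart, and the fold changes of the members with LIPA are given with and without them. Human LIPA has no row in a mouse table, so the vector could not be checked; mouse Lipa, a different row, had a mean of 247 CPM in CON-GFP, 340 CPM in FPC-GFP and 293 CPM in FPC-LIPA. The hepatocyte marker Alb was the most abundant marker checked, at mean levels of 58675, 52691 and 43086 CPM. Of 8 adipocyte markers, Adipoq, Lep, Plin1 and Retn had group means under 1 CPM in all 3 groups. Among these 4 the highest single value was Adipoq in CON-GFP 7, at 4.53 CPM. The other 4, Cfd, Adrb3, Lipe and Car3, had group means between 6.08 CPM (Adrb3 in FPC-GFP) and 5465 CPM (Car3 in CON-GFP).

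Upstream sequence is shown for Plin2 and Cidec, which rose on the diet, with RefSeq start sites on GRCm38.p6, the build of the deposited counts; that of Cidea, which also rose, is not shown here. Plin2 lies on chromosome 4 (ENSMUSG00000028494, 86648386 to 86670060, minus strand) and Cidec, which has a pair of start sites, on chromosome 6 (ENSMUSG00000030278, 113424634 to 113435760, minus strand). Each window holds the 250 bases before a start site, 5′ to 3′ on the strand of the gene, and 1 base of the Plin2 window and none of the Cidec windows lies in an annotated exon. Capitals mark matches on either strand to 5 letter patterns: AGGTCA (bound by nuclear receptors), AGGTCANAGGTCA (a pair of such sites in a row as PPARs bind them, each of which also counts as a single site), CACGTG (the E box), CCAAT (the CCAAT box) and, upstream of some genes, TATAAA (the TATA box).
Plin2, chr4:86670060-86670309: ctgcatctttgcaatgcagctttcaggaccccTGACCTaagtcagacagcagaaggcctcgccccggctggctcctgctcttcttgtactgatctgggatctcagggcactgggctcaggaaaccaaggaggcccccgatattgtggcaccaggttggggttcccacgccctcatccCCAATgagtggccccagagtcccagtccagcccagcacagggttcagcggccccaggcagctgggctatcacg
Cidec, chr6:113435761-113436010: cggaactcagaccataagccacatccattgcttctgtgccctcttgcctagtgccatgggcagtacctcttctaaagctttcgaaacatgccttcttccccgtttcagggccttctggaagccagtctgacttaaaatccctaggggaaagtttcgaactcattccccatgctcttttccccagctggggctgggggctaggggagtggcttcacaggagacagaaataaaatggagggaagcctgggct
Cidec, chr6:113434765-113435014: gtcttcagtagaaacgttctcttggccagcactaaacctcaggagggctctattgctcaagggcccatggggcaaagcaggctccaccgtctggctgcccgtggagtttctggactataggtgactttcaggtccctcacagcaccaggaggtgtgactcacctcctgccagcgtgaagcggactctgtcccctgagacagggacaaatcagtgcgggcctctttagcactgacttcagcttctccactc
The Plin2 window held AGGTCA, read on the opposite strand 218 bases before the start site, and CCAAT 73 bases before it. Neither Cidec window held any of the 5 patterns, which says only that these letters are not in those windows. Of the 9 members searched, in 11 windows, AGGTCA was in 4 (Plin2, Plin5, Abhd5 and Hsd17b13), beside 14.0% of the 32817 mouse promoter windows of the same length. CCAAT was in Plin2, Plin4 and Plin5, beside 33.8% of windows, and TATAAA in Cideb alone, beside 12.4%. No member held the paired site or the E box, which were in 0.0335% and 6.02% of windows.

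**Figure D1:**
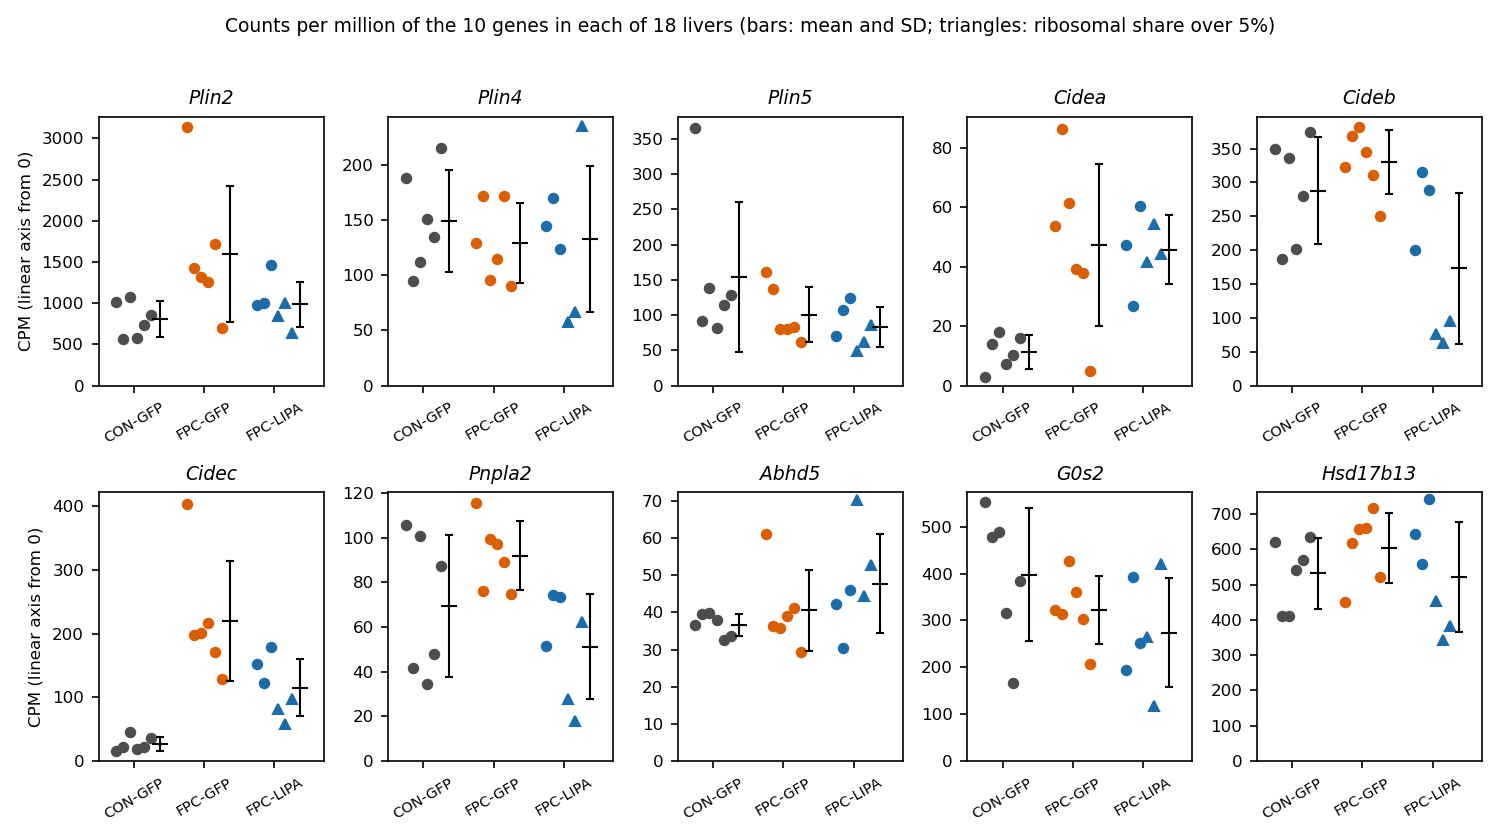
Level of each of the 10 members in every library, in CPM on a linear axis from 0, by group (CON-GFP grey, FPC-GFP orange, FPC-LIPA blue); bars give the mean and SD of 6 mice, and triangles mark the 3 FPC-LIPA libraries with over 5% of counts on ribosomal protein genes. Cidec lies higher in every FPC-GFP mouse (129 to 403 CPM) than in any CON-GFP mouse (15.5 to 45.1 CPM).

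The members differed widely in abundance per transcript length, given here as CPM per kb of exon. In CON-GFP livers G0s2 was first with a mean of 457 CPM per kb, then Hsd17b13 with 246, Plin2 with 229 and Cideb with 194 CPM per kb. Plin5 followed with 73.6, Plin4 with 25.8, Pnpla2 with 23.0, Cidec with 14.3, Cidea with 10.3 and Abhd5 with 6.16 CPM per kb. The order depends on the length used: per kb of the longest transcript, rather than of all exons, G0s2 was still first in CON-GFP (457), but Plin2 came second (425), and Abhd5 (11.6) came before Cidea (10.3). Neighbours in the order mostly overlapped between mice: in CON-GFP the ranges of neighbours parted only between Plin5 and Plin4, and in FPC-GFP only between Plin4 and Abhd5. In FPC-GFP the order by mean was Plin2 (453 CPM per kb), G0s2 (370), Hsd17b13 (280), Cideb (222), Cidec (118), Plin5 (48.2), Cidea (42.4), Pnpla2 (30.5), Plin4 (22.4) and Abhd5 (6.81). In FPC-LIPA the first 5 places by mean were held by G0s2 (315 CPM per kb), Plin2 (281), Hsd17b13 (241), Cideb (116) and Cidec (62.1), then came Cidea (41.1), Plin5 (39.9), Plin4 (23.0), Pnpla2 (17.0) and Abhd5 (8.02). Per kb of the longest transcript Plin2 was first in FPC-LIPA too, at 522 against 315 for G0s2.

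The first comparison asked what the FPC diet changed in livers that carried the GFP vector. Cidec and Cidea, the CIDE genes that normal liver expresses weakly, rose 8.30-fold and 4.13-fold, and Plin2 rose 1.99-fold. The other 7 members did not pass the test. A gene was called differentially expressed at a fold of at least 2 and a Benjamini-Hochberg adjusted p under 0.05 in edgeR's quasi-likelihood test, 6 livers against 6. By that rule 2 of 10 members were called, both higher, where 4.76% of the 14307 genes tested were called higher and 7.2% in either direction. With the adjusted p alone 3 members passed, all higher, where 12.9% of genes passed as higher and 23.8% in either direction. The members had a median log2 fold change of 0.20, beside 0.01 over all genes tested.

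**Figure D2:**
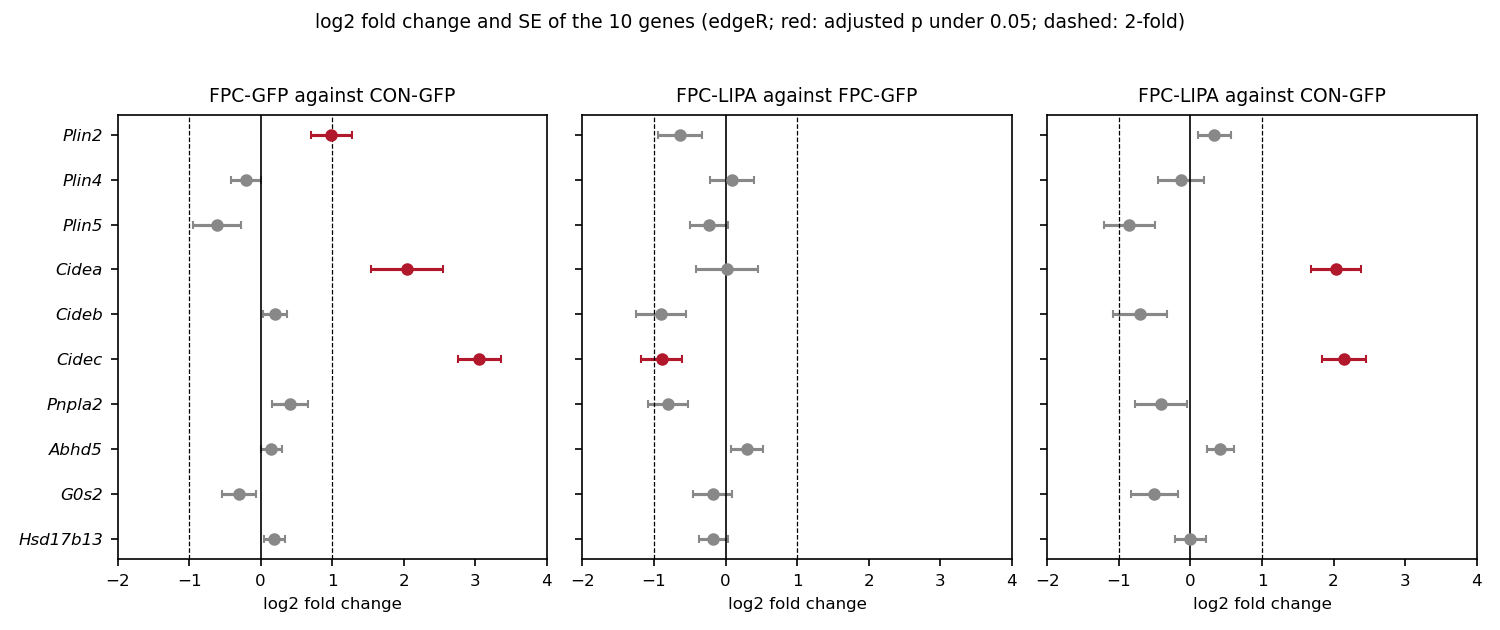
Log2 fold change of each member with its SE, in the diet comparison, the LIPA comparison and FPC-LIPA against CON-GFP; red marks an adjusted p under 0.05 and dashed lines a 2-fold change. Cidec and Cidea exceed 2-fold on the diet and against CON-GFP, and Cidec alone is red in the LIPA comparison.

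Cidec, also called Fsp27, drives the fusion of droplets into large ones and is abundant in fat cells. It ranged from 15.5 to 45.1 CPM in CON-GFP, with a median of 21.7 CPM, and from 129 to 403 CPM in FPC-GFP, with a median of 199 CPM. All 6 FPC-GFP livers lay above all 6 CON-GFP livers; Cidec was the single member whose groups did not overlap, where 5.61% of genes tested were wholly higher and 10.4% wholly separate in either direction. Its log2 fold change was 3.05 (SE 0.30, adjusted p = 5.75e-05 in edgeR), and 18 of the 14307 genes tested had a higher one. FPC-GFP 11 stood above the rest of its group at 403 CPM, with the next liver at 217 CPM.

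Cidea (ENSMUSG00000024526), best known from brown fat, ranged from 2.94 to 18.1 CPM in CON-GFP, with a median of 12.2 CPM, and from 4.80 to 86.4 CPM in FPC-GFP, with a median of 46.4 CPM. In 5 of 6 FPC-GFP livers it lay above every CON-GFP liver, and FPC-GFP 20, at 4.80 CPM, lay inside the control range. The log2 fold change was 2.05 (SE 0.50, adjusted p = 0.00963 in edgeR) and, without FPC-GFP 20, 2.28 (adjusted p = 0.000964). Both genes stayed past fold and test in all 22 alternative fits. Adipocyte RNA was measured beside them, since both genes are fat cell genes. The adipocyte markers Adipoq, Lep, Plin1 and Retn reached at most 0.124 CPM in any FPC-GFP library, where Cidec was at 129 CPM or more. Of the other 4 markers on the list, edgeR called 0. Cfd went from a mean of 10.2 to 17.9 CPM on the diet, with 1 FPC-GFP liver at 54.8 CPM, and Lipe from 16.9 to 21.7 CPM, while Car3 went from 5465 to 2979 CPM and Adrb3 also had the lower mean on the diet, 6.08 CPM. Their part in the Cidec and Cidea values was not tested.

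Cideb (ENSMUSG00000022219, chromosome 14, 55754050 to 55758458, minus strand), the CIDE protein typical of hepatocytes with a part in the lipidation of VLDL, did not pass. It ranged from 187 to 374 CPM in CON-GFP and from 251 to 381 CPM in FPC-GFP, with medians of 308 and 334 CPM, and the groups overlapped. Its log2 fold change was 0.20 (SE 0.17, adjusted p = 0.397 in edgeR). Of the exon bases of Cideb, 76.3% (1136 bases) also lie in Nop9, which runs on the opposite strand. The methods name both an unstranded and a stranded library kit, and the strand setting of the counting is not given in the sources used here, so reads of Cideb and Nop9 cannot be told apart; Nop9 itself was low, with means of 16.3, 19.3 and 12.6 CPM in CON-GFP, FPC-GFP and FPC-LIPA.

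Because its relatives rose and Cideb did not pass the test, the make-up of the CIDE RNA differed between diets. Cideb made up 83.7% to 95.5% of the summed CPM per kb of the 3 genes in CON-GFP livers (mean 88.5% ± 4.21, SD, n = 6) and 45.1% to 69.6% in FPC-GFP livers (mean 59.3% ± 8.07). The ranges did not overlap. The share of Cidec went from 3.41% to 9.13% in CON-GFP to 24.7% to 45.0% in FPC-GFP, while that of Cidea overlapped, at 1.07% to 8.40% and 1.78% to 18.0%. These shares were derived from pairs of genes chosen with their values known and were not tested. They use the Cideb counts as deposited, with the exon overlap with Nop9 left uncorrected. The same holds for the level of Cideb per kb and for the ratio of Cidec to Cideb.

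**Figure D3:**
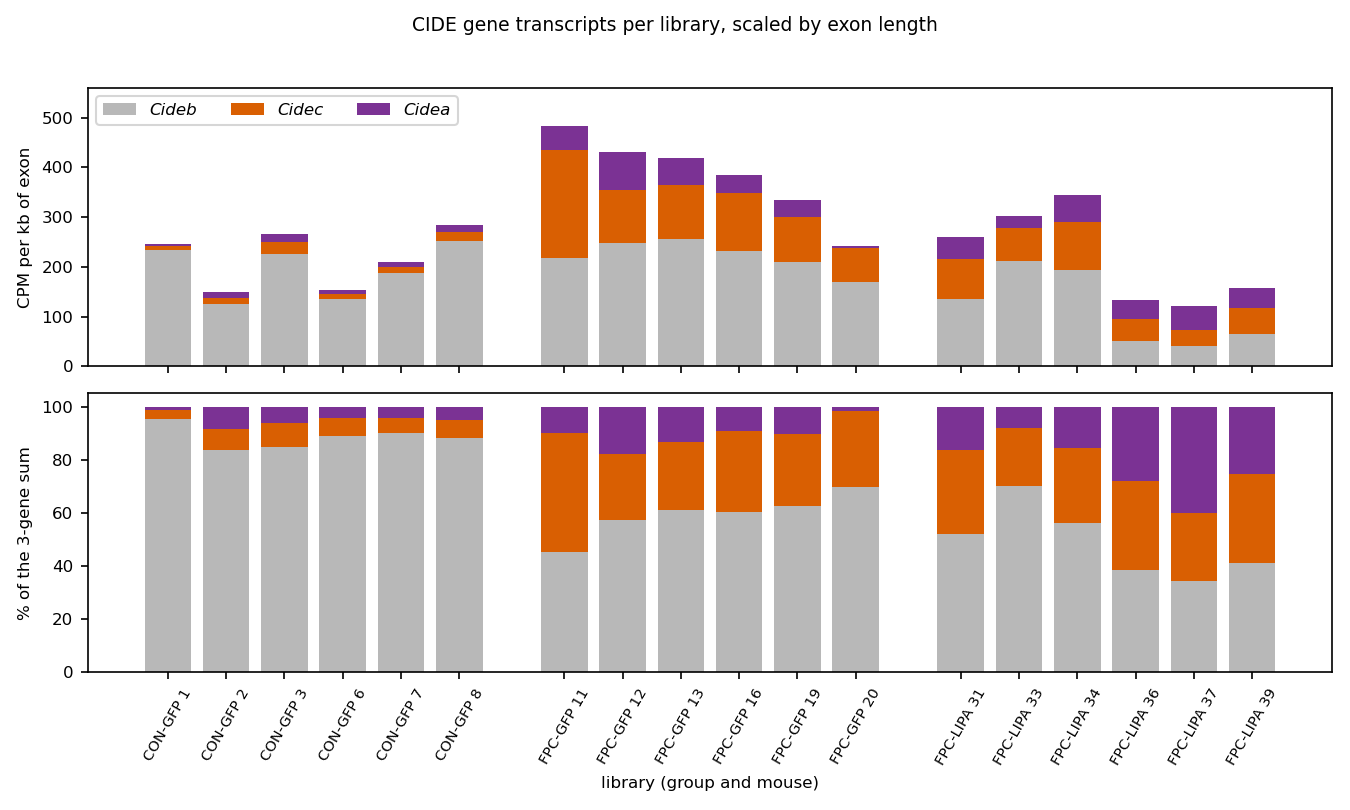
Cideb (grey), Cidec (orange) and Cidea (purple) in each of 18 livers, 1 stacked bar per liver, as CPM per kb of exon (top) and as percent of the 3-gene sum (bottom). Cideb takes 83.7% or more in every CON-GFP liver, 45.1% to 69.6% in FPC-GFP and 34.4% to 70.1% in FPC-LIPA.

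Among the perilipins, Plin2, the main droplet coat of hepatocytes, rose on the diet. It ranged from 559 to 1077 CPM in CON-GFP, with a median of 794 CPM, and from 698 to 3135 CPM in FPC-GFP, with a median of 1370 CPM. In 5 of 6 FPC-GFP livers it lay above every CON-GFP liver; FPC-GFP 11 was the highest at 3135 CPM and FPC-GFP 20 the lowest at 698 CPM. The log2 fold change was 0.99 (SE 0.28, adjusted p = 0.0200 in edgeR), just under the fold of 2 that a call needed. Its adjusted p stayed under 0.05 in all 23 fits, with log2 fold changes from 0.68 to 1.19, and 11 of the 22 alternatives brought it past the fold too; the lowest value, 0.68, came without FPC-GFP 11 (adjusted p = 0.0393). Macrophages also express Plin2, and the summed CPM of 10 macrophage markers was 151 to 306 in CON-GFP and 421 to 869 in FPC-GFP, with all 10 called higher; their part in the Plin2 value was not tested.

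Plin5 (ENSMUSG00000011305, chromosome 17, 56111601 to 56117596, minus strand), which tethers droplets to mitochondria, had a median of 122 CPM in CON-GFP (81.7 to 366) and 82.2 CPM in FPC-GFP (61.9 to 161), with a log2 fold change of -0.61 (adjusted p = 0.197 in edgeR, SE 0.34). That size rested on CON-GFP 1, at 366 CPM where the next control liver had 139 CPM: without it the log2 fold change was -0.14 (adjusted p = 0.685). Plin4, its neighbour on the same strand (ENSMUSG00000002831, 56100591 to 56109803), had medians of 143 CPM (94.4 to 215) and 122 CPM (90.6 to 172), and a log2 fold change of -0.21 (adjusted p = 0.494 in edgeR, SE 0.21). The groups overlapped for both. Plin2 took 58.2% to 78.1% of the summed CPM per kb of Plin2, Plin4 and Plin5 in CON-GFP livers. In FPC-GFP livers its share was 81.0% to 90.0%, and the ranges did not overlap. Plin3, with group means of 48.9 to 80.5 CPM, and Plin1 were left out of this sum. These shares were not tested.

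The 3 genes of the lipolysis unit did not pass the test on the diet. They are Pnpla2 (ENSMUSG00000025509, chromosome 7, 141455198 to 141460743, plus strand), Abhd5 (ENSMUSG00000032540, chromosome 9, 122351608 to 122381524, plus strand) and G0s2 (ENSMUSG00000009633, chromosome 1, 193272161 to 193273217, minus strand). Pnpla2 had a median of 67.6 CPM in CON-GFP (34.7 to 105) and 93.1 CPM in FPC-GFP (74.7 to 116), with a log2 fold change of 0.41 (adjusted p = 0.239 in edgeR, SE 0.25). The control livers fell apart for this gene, with CON-GFP 2, 6 and 7 at 34.7 to 47.8 CPM and CON-GFP 1, 3 and 8 at 87.5 to 105 CPM, while all 6 FPC-GFP livers lay above the first 3. Abhd5 had medians of 37.3 CPM (32.7 to 39.8) and 37.8 CPM (29.4 to 61.3), with a log2 fold change of 0.15 (adjusted p = 0.480, SE 0.15). G0s2 had medians of 432 CPM (166 to 553) and 318 CPM (207 to 428), with a log2 fold change of -0.30 (adjusted p = 0.361, SE 0.24). The groups overlapped for each of the 3.

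Hsd17b13 (ENSMUSG00000034528, chromosome 5, 103955440 to 103977410, minus strand), a retinol dehydrogenase that sits on hepatocyte droplets, had a median of 556 CPM in CON-GFP (410 to 635) and 638 CPM in FPC-GFP (451 to 717). The groups overlapped, and the log2 fold change was 0.19 (SE 0.15, adjusted p = 0.353 in edgeR). FPC-GFP 20 was the lowest FPC-GFP liver in 9 of the 10 members, all but Hsd17b13, for which FPC-GFP 11 was lowest. FPC-GFP 20 also held the fewest counts of its group (17813507), and its sample sheet number, 79, lies outside 55 to 68. The part of depth or sheet number in its levels was not tested. FPC-GFP 11 was the highest in 5 members.

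The second comparison asked what hepatocyte LIPA changed on the FPC diet, 6 FPC-LIPA livers against the same 6 FPC-GFP livers. Cidec was lower, by 0.89 on the log2 scale, and it was the single member with an adjusted p under 0.05. Cideb and Pnpla2 had similar differences that missed the threshold. None of the 10 members was called at a fold of 2 by edgeR, where 11.4% of 14620 genes tested were called and 1.11% were called lower; 3 members had an unadjusted p under 0.05, as had 5825 of all genes, and DESeq2 called 0 members at that fold. With the adjusted p alone 1 member passed, lower, where 6.87% of genes passed as lower and 21.2% in either direction. The median log2 fold change of the members was -0.20, beside 0.04 over all genes tested. The diet comparison used the same FPC-GFP livers, so a high value in one of them raises the first difference and lowers the second.

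Cidec ranged from 57.6 to 179 CPM in FPC-LIPA, with a median of 110 CPM, against 129 to 403 CPM in FPC-GFP, with a median of 199 CPM. FPC-LIPA 36, 37, 39 and 33 lay below every FPC-GFP liver, and FPC-LIPA 31 and 34 lay within their range. The log2 fold change of -0.89 (SE 0.29) had an adjusted p of 0.0421 in edgeR and 0.0166 in DESeq2. It was under 0.05 in 12 of 24 fits: it rose to 0.101 without FPC-GFP 11 (log2 fold change -0.63), and leaving out any of FPC-GFP 12, 13, 16 or 19 or FPC-LIPA 36, 37 or 39 also brought it over 0.05, to between 0.0529 and 0.0930. Without FPC-LIPA 36, 37 and 39 together the log2 fold change was -0.52 (SE 0.28, adjusted p = 0.345).

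Cideb separated 2 sets of libraries within FPC-LIPA. FPC-LIPA 36, 37 and 39 had 62.2 to 95.6 CPM, FPC-LIPA 31, 33 and 34 had 201 to 315 CPM, and FPC-GFP livers had 251 to 381 CPM. The first 3 lay below every other library of the series for this gene. The log2 fold change over all 6 was -0.90 (SE 0.35, adjusted p = 0.0723 in edgeR and 0.0387 in DESeq2), and without these 3 it was -0.28 (SE 0.17, adjusted p = 0.397). Nop9, which shares most of the Cideb exon bases, was also lower, with a log2 fold change of -0.56 (adjusted p = 0.0239, SE 0.15), and -0.44 without these 3 libraries (adjusted p = 0.129); leaving out FPC-GFP 11 or 13 or FPC-LIPA 36 or 39 alone brought its adjusted p over 0.05, to 0.0535 at most.

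Pnpla2 ranged from 18.1 to 74.3 CPM in FPC-LIPA, with a median of 56.9 CPM, all below the lowest FPC-GFP liver at 74.7 CPM. It was the single member whose groups did not overlap, where 4.3% of genes were wholly lower and 7.66% wholly separate in either direction. The gap to the nearest FPC-GFP liver was small, and the log2 fold change of -0.80 (SE 0.28) had an adjusted p of 0.0544 in edgeR and 0.0282 in DESeq2. Without FPC-LIPA 36, 37 and 39 it was -0.46 (SE 0.17, adjusted p = 0.183).

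**Figure D4:**
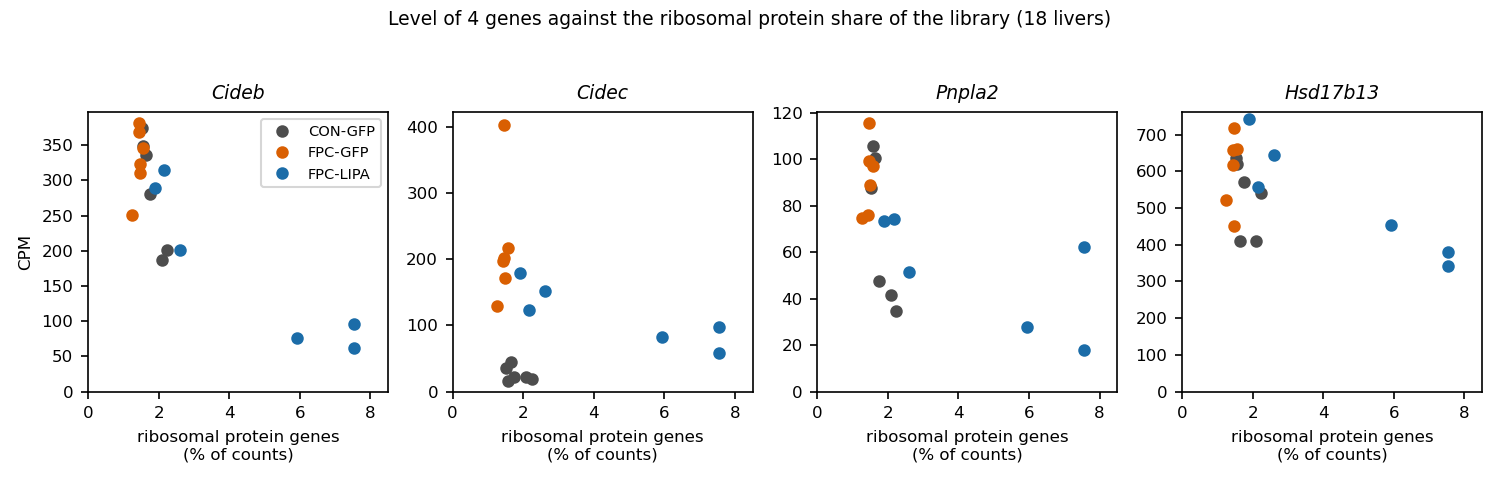
Level of Cideb, Cidec, Pnpla2 and Hsd17b13 (CPM, vertical axis) against the share of a library's counts on cytosolic ribosomal protein genes (percent, horizontal axis), 1 point per liver, by group (CON-GFP grey, FPC-GFP orange, FPC-LIPA blue). The 3 FPC-LIPA livers with shares of 5.93% to 7.54% have the lowest Cideb levels, 62.2 to 95.6 CPM.

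The ribosomal share moved with several members in FPC-LIPA. Cideb, Cidec and Hsd17b13 lay lower in all 3 libraries with high shares than in any of the other 3 FPC-LIPA libraries. No member lay wholly higher. How many of all genes parted in this way was not counted, so this is not read as a result about the members. Hsd17b13 had 342 to 453 CPM in the 3 libraries with high shares and 559 to 742 CPM in the others. Abhd5 leaned the other way with overlap, at 44.4 to 70.4 CPM against 30.6 to 46.0 CPM. Within CON-GFP, the livers with the 2 highest ribosomal shares (CON-GFP 2 with 2.09% and CON-GFP 6 with 2.24%) also had the lowest Cideb, at 187 and 202 CPM, and the lowest Pnpla2, at 41.4 and 34.7 CPM. In FPC-GFP the order was not the same: FPC-GFP 20, with the lowest share of the series (1.25%), had the lowest Cideb (251 CPM) and Pnpla2 (74.7 CPM) of its group, and FPC-GFP 16, with the highest share of its group (1.57%), had 345 and 97.2 CPM. What sets the ribosomal share, and its part in these levels, was not tested.

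The remaining members did not pass the test with LIPA, and all overlapped between groups. Plin2 had a median of 986 CPM in FPC-LIPA (636 to 1462) and a log2 fold change of -0.64 (adjusted p = 0.128 in edgeR, SE 0.30); without FPC-LIPA 36, 37 and 39 it was -0.45 (adjusted p = 0.510). Cidea, in contrast to Cidec, had nearly the same level in both FPC groups: FPC-LIPA ranged from 26.9 to 60.5 CPM with a median of 45.9 CPM, and the log2 fold change was 0.02 (SE 0.43, adjusted p = 0.974). The difference between the changes of Cidea and Cidec was not tested. Plin5 had a median of 78.6 CPM (49.4 to 124; log2 fold change -0.23, SE 0.27) and Plin4 one of 134 CPM (57.5 to 235; log2 fold change 0.09, SE 0.31), the spread of Plin4 being wider than in either other group. Abhd5 had a median of 45.2 CPM (30.6 to 70.4; log2 fold change 0.30, SE 0.22). G0s2 had one of 259 CPM (117 to 421; log2 fold change -0.18, SE 0.27), and Hsd17b13 one of 506 CPM (342 to 742; log2 fold change -0.17, SE 0.20). The adjusted p of these last 5 lay between 0.319 and 0.837. Leaving out FPC-LIPA 36, 37 and 39 gave log2 fold changes of 0.02 for Plin5, 0.20 for Plin4, -0.02 for Abhd5, -0.18 for G0s2, 0.11 for Hsd17b13 and -0.05 for Cidea, and none of these passed. Macrophage markers summed to 959 to 1397 CPM in FPC-LIPA, above the 421 to 869 CPM of FPC-GFP, with 5 of 10 called higher. Their part in the Plin2 level was not tested. Of the 5 called markers, Adgre1 and Lyz2 were still called without FPC-LIPA 36, 37 and 39, at log2 fold changes of 1.35 and 1.46. Without those libraries Gpnmb went from 1.70 to 1.90, Itgam from 1.27 to 1.45 and Trem2 from 1.76 to 1.69. The adjusted p of Gpnmb, Itgam and Trem2 was then between 0.0586 and 0.0867 in edgeR.

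Set against CON-GFP, the FPC-LIPA livers show where the members lay relative to the control diet. Cidec and Cidea were higher, with no overlap, and the other 8 members did not pass. Cidec had a log2 fold change of 2.15 (adjusted p = 0.000315 in edgeR, SE 0.31) and Cidea one of 2.04 (SE 0.35, adjusted p = 0.00105). By the call rule 2 of 10 members were higher, where 11.8% of 14433 genes were called higher and 15.1% in either direction, and by the adjusted p alone the same 2 passed, where 14.7% of genes passed as higher and 22.9% in either direction. Both lay wholly above CON-GFP, where 5.58% of genes were wholly higher and 11.1% wholly separate in either direction. Without FPC-LIPA 36, 37 and 39 the log2 fold changes were 2.53 for Cidec (adjusted p = 0.000141) and 1.99 for Cidea (adjusted p = 0.00543).

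Plin2, in FPC-LIPA at 636 to 1462 CPM against 559 to 1077 CPM in CON-GFP, had a log2 fold change of 0.33 (adjusted p = 0.303 in edgeR, SE 0.23), and the ranges overlapped. Plin5 had one of -0.85 (SE 0.35, adjusted p = 0.0891), which was -0.40 without CON-GFP 1. Abhd5 had one of 0.42 (SE 0.19, adjusted p = 0.115), Cideb -0.71 (adjusted p = 0.181), G0s2 -0.51 (adjusted p = 0.266) and Pnpla2 -0.41 (adjusted p = 0.418). Several of these values were smaller without FPC-LIPA 36, 37 and 39: Cideb was then at -0.080, Pnpla2 at -0.044 and Abhd5 at 0.13, while Plin2 was at 0.53, Plin5 at -0.59, G0s2 at -0.49, Plin4 at -0.010 and Hsd17b13 at 0.30, none with an adjusted p under 0.132. The members had a median of -0.07, beside 0.04 over all genes tested. This comparison shares its CON-GFP livers with the first and its FPC-LIPA livers with the second.

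The balance of the members is described by ratios of CPM per kb within a liver, with no test, since the pairs were chosen with values known. G0s2 exceeded Pnpla2, the lipase it inhibits, in all 18 livers, with a median ratio of 17.5 in CON-GFP (12.0 to 40.1), 12.4 in FPC-GFP (9.59 to 14.9) and 20.3 in FPC-LIPA (11.9 to 33.2), where FPC-LIPA 31, 33 and 34 had a median of 13.1. The FPC-GFP livers had the narrowest spread, and the groups overlapped. Plin2 to Plin5 had a median ratio of 3.86 in CON-GFP (1.65 to 4.61), 9.52 in FPC-GFP (6.22 to 12.2) and 7.55 in FPC-LIPA (4.38 to 10.2), so that FPC-GFP lay wholly above CON-GFP and FPC-LIPA overlapped with both; without FPC-LIPA 36, 37 and 39 it was at 5.59 to 8.17, above CON-GFP. Cidec to Cideb had a median of 0.0769 in CON-GFP (0.0357 to 0.108), 0.435 in FPC-GFP (0.412 to 0.998) and 0.672 in FPC-LIPA (0.312 to 0.869), where FPC-LIPA 31, 33 and 34 had a median of 0.497. Both FPC groups lay above CON-GFP here, and they overlapped with each other although each gene had a lower mean in FPC-LIPA. Cideb made up 34.4% to 70.1% of the CIDE RNA in FPC-LIPA, and 52.0% to 70.1% in FPC-LIPA 31, 33 and 34; Cidea made up 7.99% to 40.1%, and 7.99% to 16.4% in those 3.

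Other genes of droplets and triglyceride turnover were followed from lists. Of 12 other droplet coat and biogenesis genes tested (Mettl7b and Hsd17b11 the most abundant), edgeR and DESeq2 called 0 at a fold of 2 on the diet (3 with an unadjusted p under 0.05, median log2 fold change 0.21) and 0 with LIPA (6 with an unadjusted p under 0.05, median -0.03). By the adjusted p alone Hilpda, an inhibitor of the lipase Pnpla2, was higher with LIPA (log2 fold change 0.96, adjusted p = 0.0326). Fitm2 and Faf2 were lower, at -0.58 and -0.63. Without FPC-LIPA 36, 37 and 39 the log2 fold changes were 0.68 for Hilpda, -0.46 for Fitm2 and -0.26 for Faf2. The adjusted p of these 3 then lay between 0.197 and 0.322. Leaving out 1 library brought the adjusted p over 0.05 in 7, 8 and 10 of 12 fits for Hilpda, Fitm2 and Faf2. Of 14 other acylglycerol and ester hydrolases, led by Ces1d and Aadac, 2 were called higher on the diet and none lower, with 6 higher and 2 lower by the adjusted p alone and a list median of 0.29. These were Lpl, lipoprotein lipase, from a mean of 11.6 to 50.2 CPM (log2 fold change 2.11, adjusted p = 0.000298), and Pnpla3, a lipid droplet protein related to the lipase Pnpla2, from 1.45 to 4.45 CPM (log2 fold change 1.61, adjusted p = 0.0176). With LIPA, Lpl was higher again, from 50.2 to 163 CPM (log2 fold change 1.79, adjusted p = 0.0136 in edgeR). Lipe, hormone-sensitive lipase, was lower, from 21.7 to 8.95 CPM (log2 fold change -1.23, adjusted p = 0.0136). By the adjusted p alone 3 genes of this list were higher and 1 lower with LIPA, and the list median was -0.03. The summed macrophage markers were also higher in both comparisons, and their part in the Lpl values was not tested. Without FPC-LIPA 36, 37 and 39 the log2 fold changes were 1.23 for Lpl (adjusted p = 0.0883) and -0.94 for Lipe (adjusted p = 0.0479).

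Of 12 regulators of droplet genes, led by Hnf4a and Mlxipl, Srebf1, the activator of fatty acid synthesis, rose on the diet from 164 to 457 CPM (log2 fold change 1.49, adjusted p = 0.000198 in edgeR). Ppargc1a, a coactivator of fat oxidation genes, fell from 9.31 to 4.14 CPM (log2 fold change -1.17, adjusted p = 0.00869), and fell short of the fold without CON-GFP 1 (-0.95). Pparg, the adipogenic receptor known to drive Cidec, went from 17.0 to 29.7 CPM, short of the fold that a call needed (log2 fold change 0.80, adjusted p = 0.0457), and its adjusted p rose over 0.05 in 9 of the 12 fits that left out 1 library. The list median was 0.03. With LIPA edgeR and DESeq2 called 0 of the 12 (5 with an unadjusted p under 0.05), 3 were lower by the adjusted p alone (Rxra, Hnf4a and Foxo1) and the list median was -0.51. Without FPC-LIPA 36, 37 and 39 the log2 fold change went from -0.95 to -0.63 for Rxra and from -0.98 to -0.46 for Hnf4a. For Foxo1 it went from -0.64 to -0.63. The adjusted p of these 3 then lay between 0.0898 and 0.225. With 1 library left out the adjusted p rose over 0.05 in 10 of 12 fits for Hnf4a, 3 for Foxo1 and 0 for Rxra.

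Each member was also matched to the gene outside the list with the most similar profile over the 18 libraries, by the root mean square difference of scaled log2 CPM among 9642 genes with a mean of at least 5 CPM, where 0 is the same profile. Cideb had the closest match, Tle5, at 0.149, with means of 498, 526 and 299 CPM in CON-GFP, FPC-GFP and FPC-LIPA. Cidec was closest to Synpo at 0.321, with means of 4.80, 18.5 and 12.9 CPM, and Plin2 to Hspb1 at 0.475, with means of 15.6, 95.7 and 35.8 CPM. The others were Pnpla2 with Atp6v0d1 (0.359), Cidea with Sdcbp2 (0.395), Plin5 with Lbp (0.399), Hsd17b13 with Adora1 (0.467), G0s2 with Pym1 (0.514) and Plin4 with Srrm2 (0.574); for Abhd5 it was Ttc1. Among the members themselves the closest profiles were Cideb and Pnpla2 at 0.558, then Cidea and Cidec at 0.730 and Cidec and Plin2 at 0.767. Abhd5 and Cideb were farthest apart at 1.76.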

How the data were processed

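The authors trimmed the reads of each liver, aligned them to GRCm38 (mm10) with HISAT2 2.1.0 and deposited whole-number counts per gene made with featureCounts of Subread; the annotation version, the strand setting and the handling of multi-mapping reads are not given in the sources used here. Raw counts were used, and 5 further sample columns of the table were not used. Members and gene lists were chosen with earlier results of these data known, and the other lists are named by the genes called in the diet or LIPA comparison and the 2 most abundant genes; Pparg, Hilpda, Fitm2, Faf2, Rxra, Foxo1 and Nop9 fall outside that rule and were named after their values were seen, and 1 gene that the rule names is not reported here. Each comparison was fitted alone on its 12 libraries (edgeR 4.0.16, limma 3.58.1, R 4.3.3): filterByExpr, TMM scaling, quasi-likelihood test, Benjamini-Hochberg adjustment over all genes tested, and SE as the log2 fold change over the square root of F. All 10 members passed the filter in each comparison. CPM use TMM factors over 18 libraries, and levels per kb use the union of exons of GENCODE M21. Each library is labelled as a separate mouse, and FPC-LIPA 37 is titled 37b. Libraries held 16632146 to 37739301 counts, and no 2 libraries of a group agreed within sampling noise. Alternatives covered scaling, filter, gene length, threshold, DESeq2 1.42.0, all 18 libraries in 1 fit, sample sheet numbers 55 to 68, and each library left out. Outside those sheet numbers were CON-GFP 1 (73), CON-GFP 2 (80), FPC-GFP 20 (79) and FPC-LIPA 37 (228). A fit without the 3 FPC-LIPA libraries with over 5% of counts on 72 ribosomal protein genes was added after seeing the data. The fit was tested on simulated data for the diet and LIPA comparisons, with changes larger than the fold minimum only. Smaller changes were not simulated. Tables used Python 3.11.15 and pandas 2.3.3, and figures matplotlib 3.10.9.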

Additional observations from a re-analysis of the deposited data

Results flagged for a closer look

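In 30 groups of 6 livers (10 members, 3 groups), 3 held a liver far from the others by Dixon's 95% criterion (the gap to the nearest liver as a share of the group's range). Chance flags about 1 in 20 groups where values are normally distributed and groups independent. Neither was checked here: CPM were used on the linear scale, the groups share livers, and all 3 flags were at the high end. Plin5 in CON-GFP 1 was at 366 CPM, where the next control liver had 139 CPM. Cidec in FPC-GFP 11 was at 403 CPM, where the next FPC-GFP liver had 217 CPM. Abhd5 in FPC-GFP 11 was at 61.3 CPM, where the next had 41.3 CPM. FPC-GFP 11 was also the highest of its group for Plin2, at 3135 CPM, and the lowest for Hsd17b13, at 451 CPM.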

How the results depend on the processing

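The calls of Cidec and Cidea on the diet and in FPC-LIPA against CON-GFP held under every alternative run. Of the fold changes of members under other settings, 633 kept direction and side of the threshold, 16 passed where the reported value did not, and 31 changed sign, with the cause not tested. In the LIPA comparison, leaving out FPC-LIPA 36, 37 and 39 gave 0.020 for Plin5, -0.054 for Cidea, -0.020 for Abhd5 and 0.11 for Hsd17b13; library size alone gave -0.024 for Plin4 and -0.13 for Cidea, and Cidea was also -0.046 with no filter, -0.38 with the length trend removed and -0.31 with sheet numbers 55 to 68, which on the diet gave 0.027 for G0s2. Hsd17b13 in FPC-LIPA against CON-GFP was 0.083 with upper-quartile factors, 0.12 with library size, 0.00051 without ribosomal genes, 0.037 with at least 1 CPM in 6 libraries, 0.025 with all 18 libraries, 0.064 by sheet number and 0.30 without the 3 libraries. Leaving out 1 library gave -0.0095 to 0.22 for Abhd5 on the diet, -0.17 to 0.24 for Plin4 and -0.22 to 0.28 for Cidea with LIPA, and -0.38 to 0.021 for Plin4 and -0.13 to 0.078 for Hsd17b13 in FPC-LIPA against CON-GFP. Members called with LIPA numbered 0, but 1 with the length trend removed (Cidec, -1.05), 1 with no fold minimum and 0 to 2 with 1 library left out: Cidec without FPC-GFP 20, Cideb without FPC-LIPA 33, and both without FPC-LIPA 34. Genes called on the diet (1030) were 3410 with no fold minimum and 686 at an adjusted p under 0.01. With LIPA (1671) they were 3102 and 53, 1016 by library size, 96 by sheet number, 116 without the 3 libraries and 856 to 2612 with 1 library left out. In FPC-LIPA against CON-GFP (2176) they were 3304 and 1198, and 1107 by sheet number. Library size alone shifted the median log2 fold change of all genes to 0.21, -0.09 and 0.12 in the 3 comparisons. No paired analysis was possible because the groups share no mouse numbers. The lowest count of a member in a library was 70, so depth limited these values little.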

Other observations

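Genes of triglyceride synthesis and targets of the PPAR receptors, which supply and use droplet lipid, were also counted. Of 13 triglyceride synthesis genes tested, with Dgat2 and Lpin2 the most abundant, 1 was called on the diet: Lpin1, a phosphatidate phosphatase that fasting raises, fell from a mean of 250 to 52.3 CPM (log2 fold change -2.24, adjusted p = 0.0102 in edgeR). CON-GFP ranged from 49.4 to 735 CPM (median 161) and overlapped with FPC-GFP at 31.5 to 113 CPM; without CON-GFP 1, at 735 CPM, the log2 fold change was -1.54 (adjusted p = 0.0250). The list had a median of 0.05, beside 0.01 over all genes. With LIPA edgeR and DESeq2 called 0 (4 with an unadjusted p under 0.05) and the list median was -0.27, and Dgat2, which makes triglyceride in the last step, was lower by the adjusted p alone, at 414 and 225 CPM in FPC-GFP and FPC-LIPA (log2 fold change -0.83, adjusted p = 0.0216; without FPC-LIPA 36, 37 and 39 -0.59, adjusted p = 0.0943, and without FPC-LIPA 36 alone adjusted p = 0.0531).

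Of 16 PPAR targets, with Fabp1 the most abundant, 2 rose on the diet and none was called lower (4 higher and 1 lower by the adjusted p alone, median 0.13). Ehhadh, an enzyme of peroxisomal fat oxidation, went from 394 to 961 CPM (log2 fold change 1.29, adjusted p = 0.00306 in edgeR), and the hormone Fgf21 from 9.85 to 25.6 CPM (log2 fold change 1.38, adjusted p = 0.00283). With LIPA, 3 others were called higher and none lower, with a median of 0.10. The fatty acid binding proteins Fabp2 and Fabp4 went from 305 to 1103 CPM (log2 fold change 1.95, adjusted p = 0.0157) and from 22.3 to 44.9 CPM (log2 fold change 1.08, adjusted p = 0.0310). Cd36, a fatty acid transporter, went from 213 to 458 CPM (adjusted p = 0.0400). Without FPC-LIPA 36, 37 and 39 none of these 3 passed, with log2 fold changes of 0.48 for Fabp2, 0.65 for Fabp4 and 0.28 for Cd36 (adjusted p between 0.203 and 0.528). With 1 library left out the adjusted p rose over 0.05 in 8 of 12 fits for Fabp4 and 9 for Cd36, and in 0 for Fabp2. Fabp4 and Cd36 are also expressed by macrophages, whose 10 markers summed to 421 to 869 CPM in FPC-GFP and 959 to 1397 CPM in FPC-LIPA, and their part in these values was not tested.

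Of other cell markers, stellate and fibroblast genes (8, led by Dcn and Col3a1) had 2 called higher on the diet, Col1a1 and Col3a1, and 1 with LIPA, Col3a1 (log2 fold change 1.70, adjusted p = 0.0174; without FPC-LIPA 36, 37 and 39 0.73, adjusted p = 0.0714; without FPC-LIPA 37 alone 1.05). Of 6 endothelial markers, led by Clec4g and Stab2, edgeR and DESeq2 called 0 in either comparison (3 on the diet and 2 with LIPA had an unadjusted p under 0.05), and 3 were higher on the diet by the adjusted p alone. Of 8 hepatocyte markers, led by Alb and Apoa1, Tat and Ass1 were called lower on the diet (Ass1 fell short of the fold without CON-GFP 1, at -0.98), and edgeR and DESeq2 called 0 with LIPA (1 with an unadjusted p under 0.05). Of 4 adipocyte markers tested, edgeR and DESeq2 called 0 on the diet (2 with an unadjusted p under 0.05) and Lipe alone, lower, with LIPA; Car3, the most abundant gene of that list, is also made by hepatocytes.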
